A study of Mus musculus with 6 samples.

Results

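The genes described here encode 6 mouse proteins grouped as sensors of nucleic acid in the cytosol and nucleus: Ifi204, Ifi205, Zbp1, Ifih1, Ddx58 and Dhx58. They were taken by gene symbol from the deposited table, and were 6 of its 12384 genes, with 16 of its 27544 transcripts. Each gene value is the sum of the FPKM values of its listed transcripts, where FPKM is the number of sequenced fragments scaled by transcript length and by the mapped fragments of the library. All 6 genes reached 0.5 FPKM in at least 3 of the 6 libraries and were among the 10277 genes tested.

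The libraries were made from RNA of exosomes, the small vesicles that cells release, collected from C57BL/6 mouse dendritic cells grown out of bone marrow with the myeloid growth factor GM-CSF (20 ng/ml) and with IL-4 (10 ng/ml). One group held exosomes of immature cells and the other exosomes of mature cells, with 3 libraries each. The growth protocol, shared by all samples, has cells taken on day 7, given lipopolysaccharide at 5 µg/ml or PBS for 24 h, washed, and kept for another 48 h before the medium was collected. It does not say which group received which agent, and a treatment tag reads untreated in all 6 samples, so the groups are called immature and mature after the sample names. Whether replicate libraries derive from different animals or cultures is not stated, so p-values reflect the spread among these libraries, which could be technical.

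Cells detect foreign or misplaced nucleic acid with several protein families. Ifih1 (MDA5) and Ddx58 (RIG-I) are helicases that bind double-stranded RNA and signal through the adaptor Mavs on mitochondria, and Dhx58 (LGP2) is a related helicase that lacks the signalling domains and modulates the other two. Ifi204 and Ifi205 belong to the PYHIN family of interferon-inducible proteins, of which p204, the Ifi204 product, is a DNA sensor that acts through Sting. Zbp1 binds left-handed Z-form nucleic acid and engages the kinase Ripk3 in regulated cell death. Most of these genes are themselves induced by type I interferon, which myeloid cells make after lipopolysaccharide engages its receptor.

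Interferon-induced genes often carry paired GAAA repeats near their start, the sequence read by interferon regulatory factors. RefSeq promoters (GRCm38.p6, 250 bases before to 50 after the start) were matched for 3 of the sensor genes, Ifi205, Ifih1 and Ddx58, and not for Ifi204, Zbp1 and Dhx58. The search took 2 copies of GAAA with 2 bases of any kind between them, on both strands. Such a pair occurred in all 3 matched promoters and in 3.44% of all 32851 RefSeq promoters of the same length. A pair with 1 base between occurred in 1 of the 3, Ddx58, and in 3.17% of all promoters. In Ddx58 the matches of the 2 GAAA spacings did not overlap. The stretches of 30 bases around each match are shown because they hold the GAAA pairs, in the direction of the gene with the match in capitals. The last of them holds the pair with 1 base between, which Ddx58 has and the other two do not. All 3 genes lie on the minus strand.
Ifi205, chr1:174031870-174031899: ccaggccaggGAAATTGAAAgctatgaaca
Ifi205, chr1:174031713-174031742: ataccccattTTTCACTTTCtcagttactg
Ifih1, chr2:62646206-62646235: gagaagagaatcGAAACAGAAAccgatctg
Ddx58, chr4:40239804-40239833: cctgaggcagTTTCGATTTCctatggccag
Ddx58, chr4:40239866-40239895: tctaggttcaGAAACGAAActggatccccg
Counted from the RefSeq start, the first Ifi205 match ran from -134 to -125 and the shorter Ddx58 match, GAAACGAAA, from -60 to -52. The other matches began 24, 33 and 3 bases into the RefSeq transcribed part of Ifi205, Ifih1 and Ddx58. The Ifih1 transcript listed with the FPKM values begins further in, at chr2:62646211, so the Ifih1 match lies upstream of that transcript. The motif was chosen after the expression values had been seen, and a match describes the sequence only.

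The libraries differed in content beyond their group. Genes at 0.5 FPKM or more numbered 8054 in immature library 2 and 9057 in mature library 1, against 9734 to 10827 in the other 4 libraries. The share of summed FPKM from mitochondrially encoded transcripts was 2.55% and 0.94% there and at most 0.282% elsewhere, and values without both libraries are given for the 6 sensor genes and for Ifi211, Irf7 and Trex1. Between 5.62% and 20.8% of genes were listed at 0 in a library. The summed FPKM ran from 130401 to 281368. FPKM values do not give read totals, so no counting interval is given. Of the 12 dendritic cell markers in the list used here, all 12 were in the table and 10 passed the filter, while Flt3 and Cd209a did not. Cd74, the invariant chain gene and the most abundant of them, stood between 265 and 1461 FPKM.

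All 6 sensor genes had a higher mean in mature exosomes, and 1 of them, Ifi205, rose in the test over all genes, while 76.4% of all genes tested had a fold change above 0. Fold changes were computed on log2(FPKM + 1), so that changes of low genes are understated, and the test was limma with Benjamini-Hochberg adjustment over 10277 genes. The background was 0.185% of genes higher and 0.0% lower at an adjusted p under 0.05. At an unadjusted p under 0.05 all 6 sensor genes were higher, where 9.52% of all genes were. In 5 of the 6 every mature library lay above every immature library, an order that 16.7% of all genes showed, and Ddx58 was the exception. The median log2 fold change was 2.30 over the 6 genes and 0.38 over all genes tested. These genes were chosen with earlier results of the data known, so the counts describe them and are not independent evidence of a direction.

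**Figure D1:**
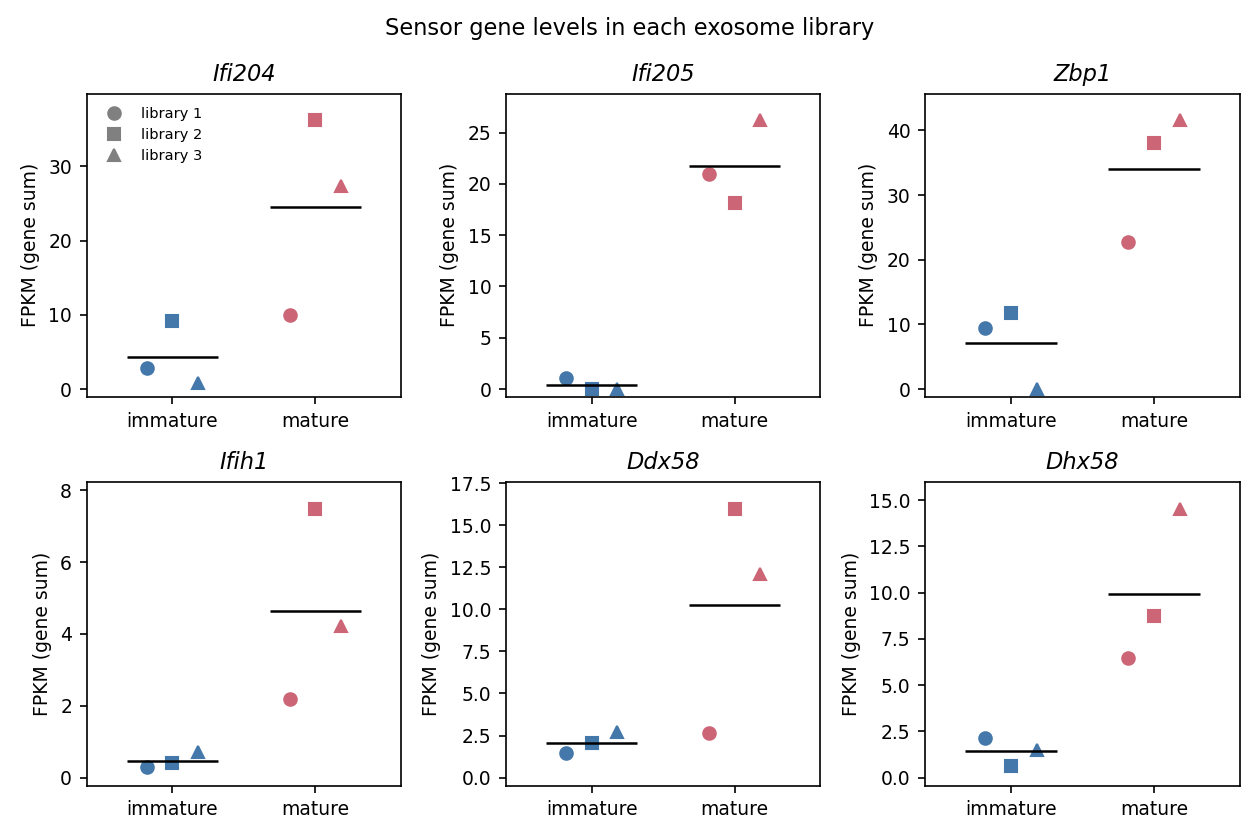
FPKM of each sensor gene (vertical axis, linear, one scale per panel) in the 3 immature and 3 mature exosome libraries. Marker shapes give the library number within a group, which is not known to pair libraries, and horizontal lines are group means. Mature libraries lie above immature ones in every panel except Ddx58, where mature library 1 at 2.64 FPKM falls just under immature library 3 at 2.69 FPKM.

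Among the PYHIN genes, Ifi205 (ENSMUSG00000054203.7, chr1:174011998-174031755) was at 1.11 FPKM in immature library 1 and listed at 0 in immature libraries 2 and 3. In the mature libraries it stood at 20.9, 18.1 and 26.2 FPKM. The groups were far apart, and the mature values lay close together. The log2 fold change was 4.13 (SE 0.50, 95% confidence interval 3.03 to 5.24, limma adjusted p = 0.00872), the seventh smallest p of the 10277 genes. The call ended without mature library 3 (adjusted p = 0.121), and it held without immature library 2 and mature library 1 together (log2 fold change 3.97, adjusted p = 0.0192). It also ended with a pseudocount of 0.1 (adjusted p = 0.0759) or 0.01 (adjusted p = 0.26).

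Ifi204 (ENSMUSG00000073489.6, chr1:173747293-173766919), the p204 gene, gave 2.86, 9.11 and 0.821 FPKM in immature exosomes. Its mature values were 9.92, 36.2 and 27.4 FPKM. The groups did not overlap, but immature library 2 and mature library 1 nearly met. The mean was 4.26 ± 4.32 FPKM (SD, n = 3) in the immature and 24.5 ± 13.4 FPKM in the mature group, with a log2 fold change of 2.45 with SE 0.70 (adjusted p = 0.28, limma). Without immature library 2 and mature library 1, the 2 libraries with the fewest genes, it was 3.62 with adjusted p = 0.0213, from 2 libraries a group. These libraries also held the highest immature and the lowest mature Ifi204 value, so leaving them out had to raise the fold change. Ifi204 and Ifi205 are members of a family of similar neighbouring genes on chromosome 1, and how reads shared between them were divided is not given in the sources used here.

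Zbp1 (ENSMUSG00000027514.14, chr2:173206612-173218923), the Z-nucleic acid sensor gene, was the most abundant of the 6 in the mature group. It stood at 9.51, 11.8 and 0.0752 FPKM in immature exosomes, against 22.7, 38.0 and 41.5 FPKM in mature exosomes. The groups did not overlap, and immature library 3 was far below the other 2 of its group. The means were 7.14 ± 6.22 and 34.1 ± 10.0 FPKM (SD, n = 3), with a log2 fold change of 2.70 with SE 0.84 (adjusted p = 0.33, limma). Without immature library 3 it was 1.55.

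Of the RNA helicases, Ifih1 (ENSMUSG00000026896.14, chr2:62595798-62646211), the MDA5 gene, was the lowest of the 6 in the mature group. It stood at 0.297, 0.407 and 0.709 FPKM in immature exosomes, against 2.18, 7.48 and 4.21 FPKM in mature exosomes. All mature values lay above all immature values, which were near the 0.5 FPKM of the filter. The log2 fold change was 1.83 (SE 0.49, limma adjusted p = 0.241), from 0.471 ± 0.213 to 4.63 ± 2.67 FPKM (SD, n = 3).

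Dhx58 (ENSMUSG00000017830.15, chr11:100694884-100704271), the LGP2 gene, gave 2.15, 0.651 and 1.49 FPKM in immature exosomes. In mature exosomes it was at 6.48, 8.73 and 14.5 FPKM. The groups were apart, with the lowest mature value well above the highest immature one. The means were 1.43 ± 0.75 and 9.91 ± 4.15 FPKM (SD, n = 3), with a log2 fold change of 2.15 with SE 0.50 (adjusted p = 0.176, limma), the smallest adjusted p of the 5 genes that did not pass.

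Ddx58 (ENSMUSG00000040296.15, chr4:40203777-40239828), the RIG-I gene, gave 1.44, 2.05 and 2.69 FPKM in immature exosomes. Its mature values were 2.64, 16.0 and 12.1 FPKM. Mature library 1 lay within the immature range, while the other 2 mature libraries were far above it. The summed FPKM was 130401 in mature library 1 and 213737 in immature library 3, so this overlap rests on values not scaled to the library total. The log2 fold change of 1.63 with SE 0.62 (adjusted p = 0.431, limma) was the smallest of the 6. Without immature library 2 and mature library 1 the Ddx58 groups no longer overlapped, since mature library 1 held the only overlapping mature value. The log2 fold change was then 2.31 (limma adjusted p = 0.0659). Leaving out the same pair gave 3.599 for Zbp1, 2.16 for Ifih1 and 2.13 for Dhx58, with limma adjusted p-values of 0.123, 0.0851 and 0.0835. For Zbp1 the pair held the highest immature and the lowest mature value, so its fold change had to rise.

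**Figure D2:**
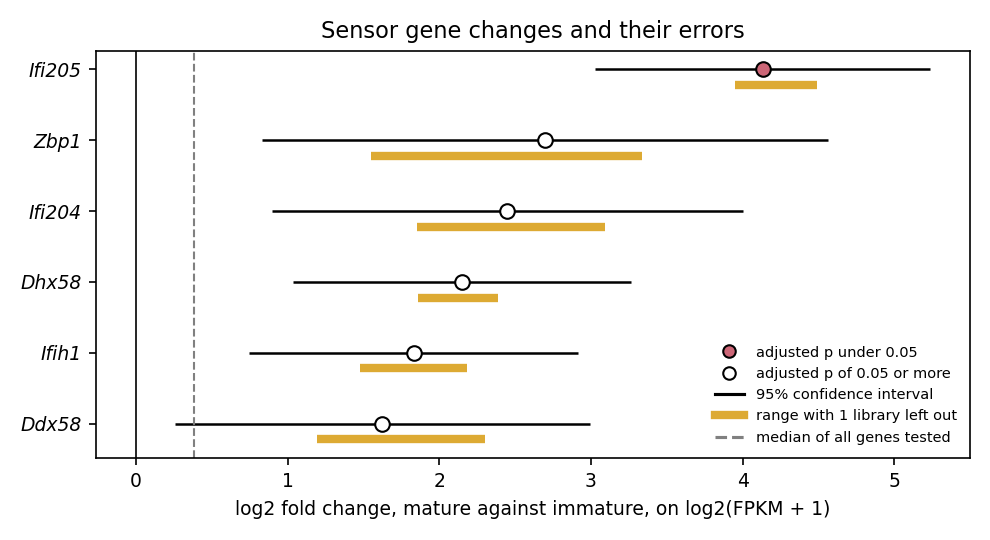
Log2 fold change of each sensor gene, mature against immature, on log2(FPKM + 1) (horizontal axis), with its limma 95% confidence interval (black line, 3 libraries a group) and the range of the estimate when each of the 6 libraries was left out in turn (yellow bar). All estimates lie to the right of the median gene at 0.38 (dashed line), and the filled point, Ifi205 at 4.13, is the one with an adjusted p under 0.05.

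The fold changes of the 6 genes stayed above 0 in each of the 16 alternative analyses set out at the start, and above the median gene of the same analysis by at least 0.99 for Ddx58, 1.01 for Zbp1, 1.27 for Ifih1, 1.32 for Ifi204, 1.57 for Dhx58 and 3.42 for Ifi205. Among these alternatives, median-of-ratios, upper-quartile and quantile scaling moved the median gene from 0.38 to 0.023, 0.0023 and -0.038. An analysis restricted to protein-coding transcripts, given with the Ddx58 transcripts, turned the sign for Ddx58.

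In the immature group the order of the means was Zbp1, Ifi204, Ddx58, Dhx58, Ifih1 and Ifi205. In the mature group it was Zbp1, Ifi204, Ifi205, Ddx58, Dhx58 and Ifih1, so Ifi205 moved from the last to the third place. Among neighbours in the mature order, Zbp1 and Ifi204, Ifi204 and Ifi205, and Ddx58 and Dhx58 differed by less than the larger SD of the pair. Together the 6 genes accounted for 0.0119%, 0.0177% and 0.00271% of the FPKM of the immature libraries and 0.0498%, 0.0442% and 0.0513% in the mature ones. As a share of the library, mature library 1 was thus level with the other 2, although it had the lowest FPKM of its group for 5 of the 6 genes.

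The sensors did not vary alike within the immature group. Ifi204 and Zbp1 were lowest in immature library 3 and highest in immature library 2. Ifih1 and Ddx58 were highest in immature library 3 and lowest in immature library 1. Among the mature libraries, library 2 was highest for Ifi204, Ifih1 and Ddx58 and library 3 for Ifi205, Zbp1 and Dhx58. With 3 libraries a group these orders are descriptions.

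The transcripts behind the gene sums differed between the helicases. The 16 listed transcripts were 7 protein-coding ones and 9 of the class processed transcript, which Ensembl uses for transcripts without an open reading frame. Of these, 11 passed the filter, and 1, Ifi205-201, the only listed transcript of its gene, was higher in the test over 15972 transcripts (limma adjusted p = 0.0425), where 0.0626% of all transcripts were higher and 0.0125% lower. This call ended when any 1 library was left out, with adjusted p from 0.0956 to 0.323, and under each of the 3 other scalings. An unadjusted p under 0.05 was reached by 7 of the 11, all of them higher, against 7.39% of all transcripts higher and 0.682% lower. In 7 of the 11 every mature value lay above every immature one, as in 13.1% of all transcripts. Except for Ifi204-201, these 7 passed the filter only because of their mature values. The 5 sensor transcripts that did not pass it all had overlapping groups. Both counts out of 11 therefore depend on a filter that high mature values alone can meet, and they describe the tested transcripts only. How reads were divided among transcripts that share exons decides these values.

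The coding transcript of Ddx58, Ddx58-201, was at 0.277, 2.05 and 1.33 FPKM in immature exosomes, against 0.666, 0.94 and 1.31 FPKM in mature exosomes. The groups overlapped throughout, with a log2 fold change of -0.09 with SE 0.51 (adjusted p = 0.986, limma). The higher gene sum in mature libraries 2 and 3 was carried by processed transcripts, which together were at 1.17, 0 and 1.36 FPKM in immature exosomes, against 1.97, 15.0 and 10.8 FPKM in mature exosomes. They made up 80.8%, 0% and 50.6% of the Ddx58 sum in the immature libraries and 74.8%, 94.1% and 89.2% in the mature libraries, so these shares overlapped. Ddx58-207 was listed at 0 in every immature library and in mature library 1, and stood at 6.64 and 4.49 FPKM in mature libraries 2 and 3. Ddx58-205 was at 0.538 FPKM in immature library 1, listed at 0 in the other 2, against 1.31, 6.28 and 4.27 FPKM in mature exosomes (adjusted p = 0.407, limma). The loci of these 2 transcripts do not overlap, Ddx58-205 covering chr4:40203777-40220600 and Ddx58-207 chr4:40223431-40239755, and both lie almost wholly within that of the coding transcript, chr4:40204849-40239828. When protein-coding transcripts alone were summed for every gene, an analysis added after the data were seen, Ddx58 had a log2 fold change of -0.09 (limma adjusted p = 0.97).

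Dhx58 showed the other arrangement. Its coding transcript Dhx58-201 was at 0.592, 0.149 and 0.28 FPKM in immature exosomes, against 3.89, 4.96 and 11.0 FPKM in mature exosomes (log2 fold change 2.41 with SE 0.55, adjusted p = 0.271 by limma). Its share of the gene sum was 27.5%, 22.8% and 18.8% in the immature libraries and 60.1%, 56.8% and 75.5% in the mature libraries, with no overlap between the groups. In immature exosomes it was not the most abundant transcript. Dhx58-204 led libraries 1 and 3 (1.33 and 0.586 FPKM) and Dhx58-206 led library 2 (0.502 FPKM). Among the other sensor genes with several transcripts, the shares of Zbp1-202, Ifih1-201 and Ddx58-205 overlapped between the groups. Among 5654 genes with several transcripts and a value above 0 in every library, the share of the most abundant transcript was higher in all 3 mature libraries for 4.21% and lower in all 3 for 3.4%. With 3 libraries against 3, an exact permutation test of a single value cannot go below p = 0.1 (2-sided). Dhx58-203, a processed transcript, was at 0, 0 and 0.21 FPKM in the immature and 1.63, 2.53 and 1.71 FPKM in the mature libraries.

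For Zbp1 the 2 coding transcripts behaved differently across libraries. The longer locus, Zbp1-201 (chr2:173206612-173218923), was at 0.597, 0 and 0.0752 FPKM in immature exosomes, against 14.2, 9.07 and 19.9 FPKM in mature exosomes, a log2 fold change of 3.62 with SE 0.54 (adjusted p = 0.0728, limma). Zbp1-202, which covers only chr2:173213735-173218910, was at 8.91, 11.8 and 0 FPKM in immature exosomes, against 8.49, 28.9 and 21.7 FPKM in mature exosomes, and its groups overlapped (limma adjusted p = 0.701). Zbp1-202 held 93.7% and 100% of the gene sum in immature libraries 1 and 2. With an eBayes fit without the trend and robust options, Zbp1-201 passed the test (adjusted p = 0.0467).

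For Ifih1 the coding transcript Ifih1-201 held the whole gene sum in 5 libraries. The processed transcript Ifih1-204 appeared in mature library 3 alone, at 1.52 FPKM or 36.0% of the sum.

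**Figure D3:**
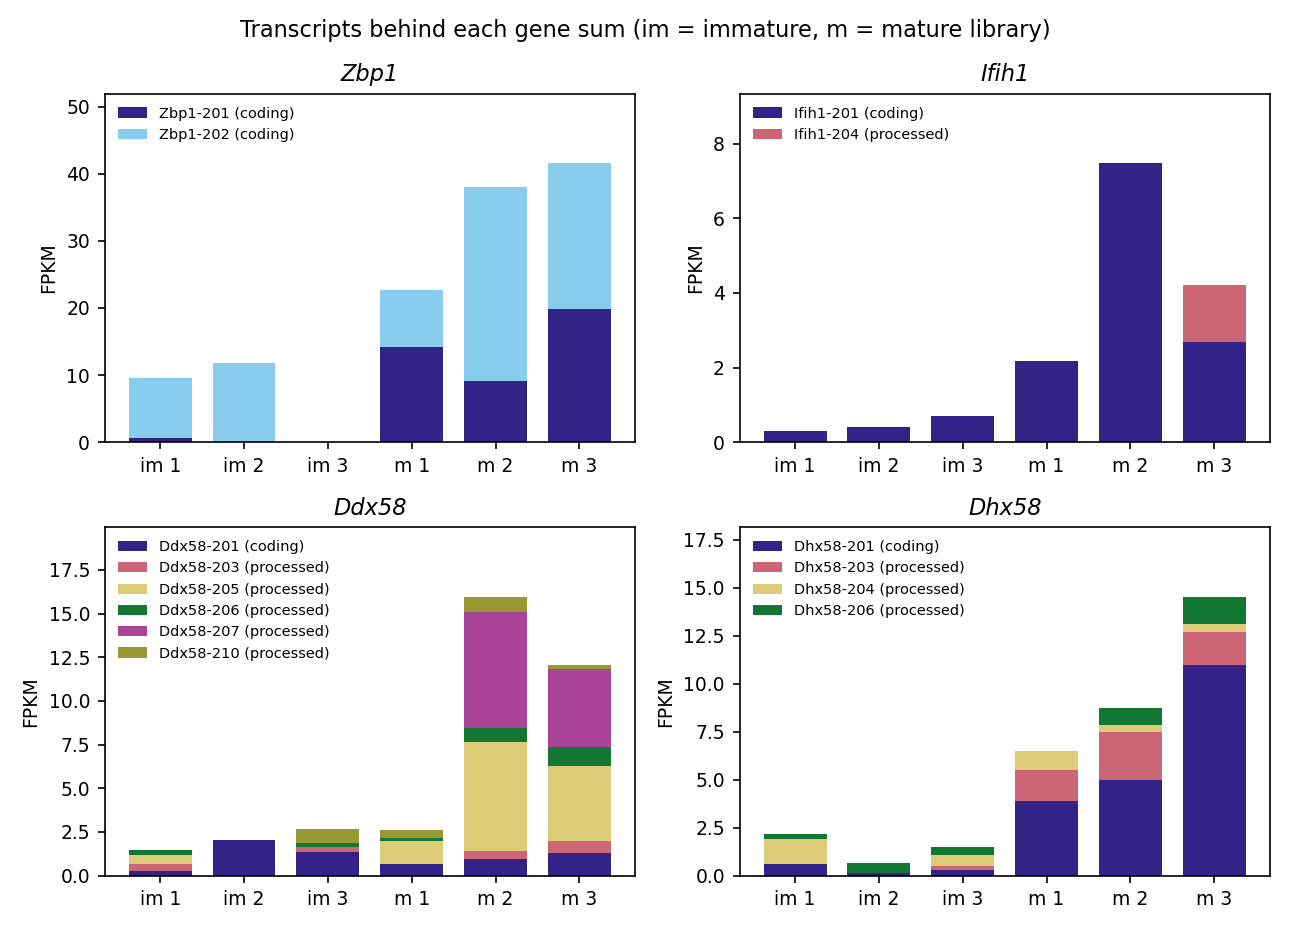
FPKM of each listed transcript of Zbp1, Ifih1, Ddx58 and Dhx58 (vertical axis, linear from 0), stacked to the gene sum in the 3 immature (im) and 3 mature (m) libraries; coding transcripts are dark or light blue. The mature Ddx58 bars are mostly processed transcripts, up to 94.1% in mature library 2, whereas the mature Dhx58 bars are mostly the coding transcript.

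Genes that work beside the sensors were followed in 8 lists with 91 different tested genes. Of these, 1 rose and 0 fell in the test over all genes, against 0.185% and 0.0% of all genes. At an unadjusted p under 0.05, 25 were higher and 0 lower, where 9.52% and 0.224% of all genes were. In the cGAS-STING and endosomal Toll-like receptor lists the share higher was under 9.52%, and in the other lists it was above. The median log2 fold change was 0.65, beside 0.38 for all genes.

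The other PYHIN genes, neighbours and relatives of Ifi204 and Ifi205, had a median log2 fold change of 1.87 over 9 tested genes. The test over all genes called 0 of the 9, while an unadjusted p under 0.05 was reached by 7, all higher. Ifi211 stood at 2.35, 4.32 and 0.659 FPKM in immature exosomes, against 16.9, 31.98 and 39.5 FPKM in mature exosomes (log2 fold change 3.22 with SE 0.57, adjusted p = 0.0776 by limma). It passed without immature library 2 (adjusted p = 0.0377) and without immature library 2 and mature library 1 together (log2 fold change 3.95, adjusted p = 0.0171). These libraries held its highest immature and lowest mature value, so leaving them out had to raise the fold change. Ifi209 had a log2 fold change of 2.67, Mndal one of 2.07 and Ifi208 one of 1.31, with limma adjusted p-values of 0.13, 0.198 and 0.238. For Aim2, the DNA sensor that assembles an inflammasome, the mature mean was not above the immature one. It was at 6.34, 7.12 and 3.14 FPKM in immature exosomes, against 2.77, 7.14 and 3.01 FPKM in mature exosomes, so the groups overlapped (limma adjusted p = 0.887). Aim2 lies outside the naming rule and was chosen after its values were seen.

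In the list of kinases, transcription factors and interferon receptor genes, with a median of 1.34 over 12 genes, Irf7 rose. This transcription factor gene amplifies interferon production. It was at 3.99, 7.51 and 3.86 FPKM in immature exosomes, against 35.8, 69.3 and 124 FPKM in mature exosomes (log2 fold change 3.54 with SE 0.56, adjusted p = 0.0355 by limma). Its call ended under each of the 3 other scalings, with adjusted p from 0.0738 to 0.0828, with a pseudocount of 0.1 or 0.01 (adjusted p = 0.0759 and 0.125) and without immature library 1, mature library 2 or mature library 3 (adjusted p = 0.257, 0.0972 and 0.342). It held without immature library 2 and mature library 1 together (log2 fold change 4.25, adjusted p = 0.0155), which held the highest immature and the lowest mature Irf7 value. In all, 7 of the 12 were higher at an unadjusted p under 0.05. Stat2 and Irf9, which carry the signal of the interferon receptor, had log2 fold changes of 1.51 and 1.49 with groups that did not overlap, and limma adjusted p-values of 0.323 and 0.308. Ifnar2, a chain of the type I interferon receptor, had a log2 fold change of 1.68 (limma adjusted p = 0.327).

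The nuclease list had a median of 0.58 over 11 genes, of which 0 were called and 2 higher at an unadjusted p under 0.05. Trex1, the exonuclease that degrades cytosolic DNA, was at 7.58, 8.42 and 2.32 FPKM in immature exosomes, against 37.6, 30.5 and 72.4 FPKM in mature exosomes. Its groups were well apart, with a log2 fold change of 2.79 with SE 0.57 (adjusted p = 0.114, limma), and of 3.17 without immature library 2 and mature library 1 (adjusted p = 0.0689). Rnaset2b, a lysosomal RNase gene, had a log2 fold change of 1.27, and Pld3, a lysosomal exonuclease gene, one of 1.15. Rnaset2a stood at 27.8, 45.5 and 12.3 FPKM in immature and 38.4, 46.4 and 57.0 FPKM in mature exosomes, with overlapping groups. Rnaset2a and Rnaset2b are near-identical copies that may share reads.

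The RIG-I-like receptor, cGAS-STING and Zbp1 partner lists had medians between 0.47 and 0.65, beside 0.38 for all genes. The list of kinases, transcription factors and interferon receptor genes, which also holds signalling partners, had 1.34. The list of RIG-I-like receptor adaptors and regulators had a median of 0.65 over 17 genes, of which 0 were called and 4 higher at an unadjusted p under 0.05. Zc3hav1, an antiviral protein gene, had a log2 fold change of 1.27, Rnf135, a ubiquitin ligase gene of RIG-I activation, one of 1.24, Tax1bp1 one of 1.205 and Trim25, a ubiquitin ligase gene, one of 1.197. Ppp1ca, a phosphatase gene and the most abundant gene of the list, had a log2 fold change of 1.06. The cGAS-STING and inflammasome list had a median of 0.47 over 12 genes, of which 0 were called. At an unadjusted p under 0.05, 1 of the 12 was higher, a share under the 9.52% of all genes. This was Gsdmd, the gasdermin D gene (log2 fold change 1.19, limma adjusted p = 0.447). The Sting gene Tmem173 had one of 0.88 and Casp1 one of 0.90, while the groups of the cGAS gene Mb21d1 overlapped, at 0.271, 0 and 1.94 FPKM against 1.00, 3.07 and 2.90 FPKM. The Zbp1 partner list had a median of 0.50 over 7 genes, of which 0 were called and 1, Mlkl, the executioner of necroptosis, higher at an unadjusted p under 0.05 (log2 fold change 1.27, limma adjusted p = 0.407). Ripk3, the kinase that Zbp1 binds, was at 14.7, 2.09 and 18.1 FPKM in immature exosomes, against 7.77, 25.1 and 20.3 FPKM in mature exosomes, with overlapping groups. The groups of Casp8, Casp6 and Cflar also overlapped (limma adjusted p = 0.742, 0.848 and 0.925).

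Other cytosolic RNA-binding sensors had a median of 0.34 over 12 genes, under that of all genes, of which 0 were called and 2 higher at an unadjusted p under 0.05. These were Ddx60, a helicase gene, with a log2 fold change of 1.33, and Adar, the RNA-editing enzyme gene, with one of 1.18. Prkra and Ddx3x, the most abundant gene of the list, had overlapping groups (limma adjusted p = 0.577 and 0.989). The endosomal Toll-like receptor list had a median of 0.56 over 11 genes, of which 0 were called. At an unadjusted p under 0.05, 1 of the 11 was higher, a share under the 9.52% of all genes. This was the transporter gene Slc15a3 (log2 fold change 1.77). Myd88 and Ticam1, adaptor genes of these receptors, had log2 fold changes of 0.99 and 0.96, and Tlr9 one of 0.64. The chaperone gene Hsp90b1 had overlapping groups (limma adjusted p = 0.803).

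**Figure D4:**
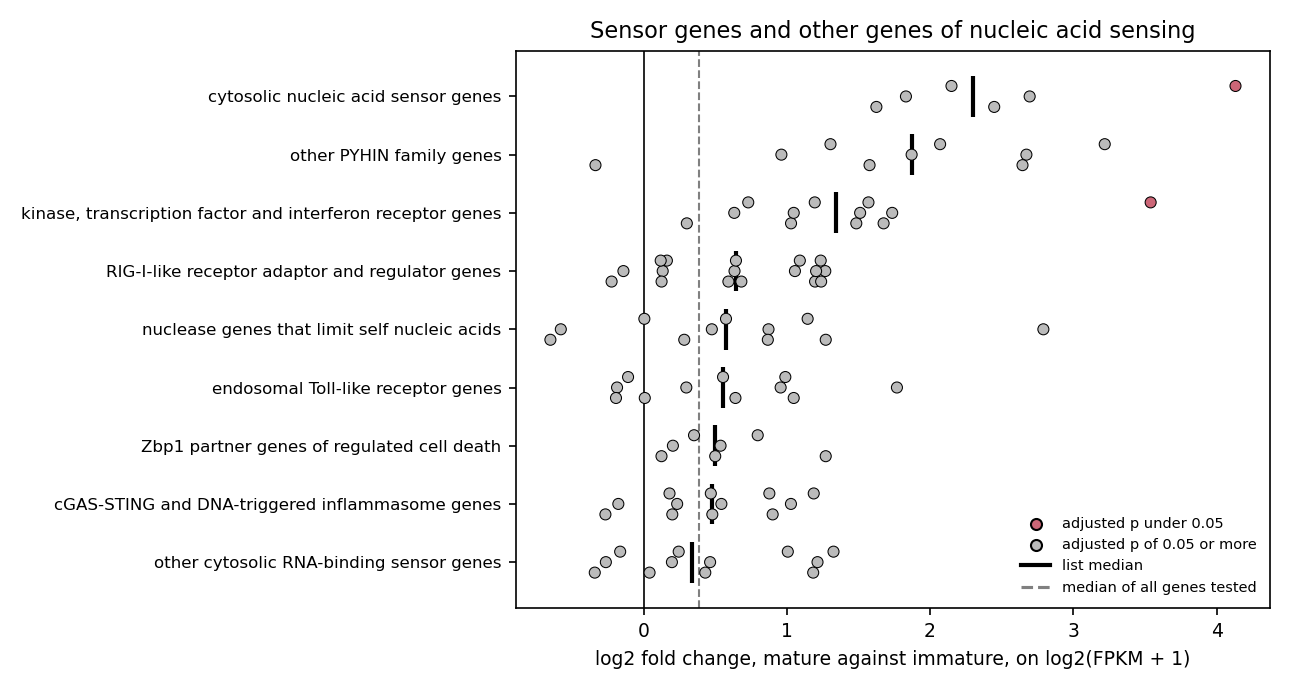
Log2 fold change on log2(FPKM + 1), mature against immature (horizontal axis), of each tested gene of the 6 sensors and of the 8 lists (rows); black ticks are list medians and the dashed line is the median of all genes tested, 0.38. Filled points are Ifi205 and Irf7, the 2 genes with an adjusted p under 0.05, and the sensor row has the highest median at 2.30. The sensors and lists were chosen with earlier results of these data known, so this order is a description.

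The genes whose profile over the 6 libraries was most like the mean profile of the 6 sensors were Oasl2, an oligoadenylate synthetase-like gene, Usp18, which removes the ubiquitin-like protein Isg15, Adora2a, an adenosine receptor gene, Traf1, a signalling adaptor gene of tumour necrosis factor receptors, and Mmp14, a membrane metalloproteinase gene. Their root mean square differences from it were 0.13, 0.18, 0.19, 0.22 and 0.31 on the log2(FPKM + 1) scale after centring. None of the 5 passed the test (limma adjusted p from 0.12 to 0.153). The median over all genes tested was 1.24, and the sensors themselves lay between 0.50 for Dhx58 and 0.96 for Ifi205. Oasl2 was at 4.13, 4.65 and 2.41 FPKM in immature exosomes, against 12.9, 27.8 and 33.9 FPKM in mature exosomes.

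Summed markers of some cell types lay apart between the groups. The 6 mast cell and basophil markers summed to 5.45 to 12.8 FPKM in the immature and 23.6 to 37.4 FPKM in the mature libraries. Of these, 0 were called over all genes, and 4 of 4 tested members were higher at an unadjusted limma p under 0.05, where 9.52% of all genes were. The groups did not overlap for 2 of the 4. The most abundant, Prss34, overlapped, at 12.7 FPKM in immature library 2 against 11.1 FPKM in mature library 1. The 12 dendritic cell markers summed to 874 to 1806 and 2038 to 3367 FPKM. All mature values lay above all immature ones in 4 of the 10 tested, as in 16.7% of all genes. The most abundant were Cd74, H2-Ab1, H2-Aa and H2-Eb1. Unlike those of the other dendritic cell markers, the means of Itgax (29.3 and 24.9 FPKM) and Cd209a (1.76 and 0.41 FPKM) were lower in the mature group. The stromal and endothelial markers summed to 11.0 to 16.3 and 16.7 to 31.2 FPKM. Of the 4 stromal and endothelial markers tested, 0 had groups that did not overlap and 0 reached an unadjusted p under 0.05. The part of these shifts in the sensor values was not tested. In exosome RNA, how many cells of a type gave vesicles and how much RNA each released cannot be told apart. The other marker lists overlapped between the groups, with neutrophil genes at 229 to 1373 and 328 to 2010 FPKM, macrophage genes at 32.8 to 85.8 and 30.6 to 145 FPKM, T and NK cell genes at 45.4 to 146 and 78.6 to 131 FPKM, and erythroid genes at 13.6 to 454 and 19.3 to 266 FPKM. B cell genes stayed at or under 3.86 FPKM and plasmacytoid dendritic cell genes at or under 9.37 FPKM in every library. No gene of these 9 lists that was in the table was at 0 in all 6 libraries.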

How the data were processed

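RNA of 6 exosome libraries was measured by sequencing. The authors deposited 1 FPKM value per transcript and library, per the file headers. Per the submitters' processing notes, the tools were HISAT2 2.0.5, STAR 2.5.2b, StringTie and cutadapt, whose steps are not given, and hg19 is named as the build. The rows hold mouse identifiers, and the listed positions of 6 of 6 sensor genes overlapped RefSeq's on GRCm38.p6, so positions are read on that build. Total read numbers are unknown. Groups and replicate numbers came from the sample titles.

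FPKM was summed per gene identifier. Features at 0.5 FPKM or more in at least 3 of 6 libraries entered a 2-sided limma test (version 3.58.1, R 4.3.3, eBayes with its trend and robust settings) of log2(FPKM + 1), without rescaling, at a Benjamini-Hochberg adjusted p under 0.05. No count model was fitted to FPKM.

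Named genes were the 6 sensors; per pathway list, those past the test, the 4 with the smallest p and the most abundant; the 5 nearest profiles; and the most abundant marker per list, of which only some are printed. Some items that this rule named are not reported here. The members and lists were chosen with earlier results of these data known. Alternatives were other pseudocounts, filters, scalings, variance options, a replicate block and left-out libraries.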

Additional observations from a re-analysis of the deposited data

How the results depend on the processing

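The 6 sensor genes kept a positive fold change in the 16 alternative analyses set out at the start, and Ifi205 passed in 12 of them. Counts are given in the order genes higher (19 in the analysis as reported), transcripts higher (10), transcripts lower (2), sensor genes higher (1), sensor transcripts higher (1) and pathway genes higher (1). With a pseudocount of 0.1 they were 9, 6, 2, 0, 0 and 0, and with 0.01 they were 5, 0, 0, 0, 0 and 0. Median-of-ratios scaling gave 12, 4, 2, 1, 0 and 0. Upper-quartile scaling and quantile normalization each gave 4 transcripts higher, with 0 sensor transcripts and 0 pathway genes. The eBayes fit without its trend and robust options called 2 sensor transcripts. Leaving out immature library 2 together with mature library 1 gave 73, 0, 0, 2, 0 and 4. The second sensor gene was Ifi204, whose highest immature and lowest mature value lay in these libraries. Leaving out 1 library at a time gave 1 to 26 genes higher (1 without mature library 3 and 7 without immature library 1), 0 to 1 lower, 0 to 6 transcripts higher, 0 to 1 lower, 0 to 1 sensor genes, 0 sensor transcripts in every case and 0 to 2 pathway genes.

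Whether replicate numbers pair the libraries is not known. The deviations of same-numbered libraries from their group means had correlations across genes of -0.03, -0.45 and -0.13. Those of differently numbered libraries ran from -0.40 to 0.53, the highest for immature library 3 with mature library 2. These values cannot decide a shared origin, because the libraries also differed in content beyond their group. With the replicate block the counts were 5, 0, 0, 0, 0 and 0, and Ifi205 and Irf7 had adjusted p = 0.0558 and 0.127.

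Signs turned for results that had not passed. Ddx58-201 was at 0.034 with a pseudocount of 0.01 and 0.30 without both libraries, and between -0.45 and 0.18 with 1 library left out. Ddx58 from coding transcripts alone was at -0.093. Under median-of-ratios, upper-quartile and quantile scaling, the median of other RNA-binding sensors was at -0.019, -0.042 and -0.087. Quantile normalization also gave -0.078 for the cGAS-STING median and -0.038 for the median of all genes. The cause was not tested. FPKM hides the depth behind each low value, so differences of genes near 0.5 FPKM are the least certain.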
